A study of Arabidopsis thaliana with 24 samples.

Results

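The 128 probe sets described here were lower in leaf blades of Arabidopsis thaliana at 5 weeks than at 4 weeks after sowing, whatever the plants had been watered with. They are 128 of the 22746 probe sets that measure plant transcripts on the array. The members were chosen by measured values. A probe set was taken when its mean on the log2(signal + 16) scale was at least 1 lower at 5 weeks than at 4 weeks in each of the 4 waterings, and its highest array of 5 weeks lay below its lowest array of 4 weeks. The first condition was met by 190 probe sets (0.835% of those measured), the second by 615 (2.7%) and both by 133 (0.585%), of which 5 were left out by name. The difference between 5 and 4 weeks chose the members, so it is given here as a description with no test. The same rank of leaf was sampled at both times, the second and the third fully expanded blade counted from the top, so the difference is one of harvest and plant age and not of a single leaf followed in time.

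Wild-type plants of the Columbia-0 accession were grown in pots and fed from below once a week with 25 ml of water, the control, or of 1 of 3 solutions. These were GSSG, the oxidized form of glutathione, at 1 mM, GSH, its reduced form, at 2 mM, and ammonium nitrate (NH4NO3) at 3 mM. Whole aerial parts, shoot apex included, were harvested at 3 weeks (3W). Leaf blades were harvested at 4 and 5 weeks, written 4W and 5W. All 12 groups of harvest and watering had 2 arrays each, and the labels do not say whether these came from separate pots, so a p-value here covers only how far these arrays differed, and that may be technical. All plants had the same genotype, and whether plants were pooled for an array is not given in the labels.

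A leaf stops dividing and then stops expanding its cells as it matures. In growing leaves, enzymes that cut, loosen or crosslink pectin, xyloglucan and other polymers of the cell wall allow the wall to yield, and tubulins and kinesins serve division and the deposition of new wall. Chloroplasts are assembled in the same period, when chlorophyll synthesis and the thylakoid membranes, which carry the light reactions, are built up. Nitrogen supply is known to affect how long leaves keep growing and stay green.

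Of the 128 members, 56 had 1 gene in the platform annotation, 3 had several and 69 were unnamed here. The 56 stand for 55 genes, because 2 probe sets measure AT5G50740. The median member had a mean signal of 1390 at 3W, 1035 at 4W and 311 at 5W. The median over all probe sets at 4W was 169, so the members were mostly bright before they were low. At 5W, 31 members had a mean signal under 100 and 5 had one under 16.

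The mean difference of 5W from 4W, over the 4 waterings, had a median of -1.69 among the members and ran from -6.33 to -1.14 (log2 scale). It was -2 or lower in 36 members and -3 or lower in 6. In the limma fit to all 24 arrays, 13.6% of all probe sets were called lower at 5W and 16.1% higher. All 128 members were among those called lower, a count that the choice of members fixes. The members nearest to the threshold were AT4G15830 (-1.001 in NH4NO3), HEME1 (-1.01 in GSH) and AT5G17670 (-1.02 in water). The nearest named genes on the other side of it were AT3G50790 (-0.99), AT5G18600 (-0.99) and AT1G56720 (-0.98), each in GSH.

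**Figure D1:**
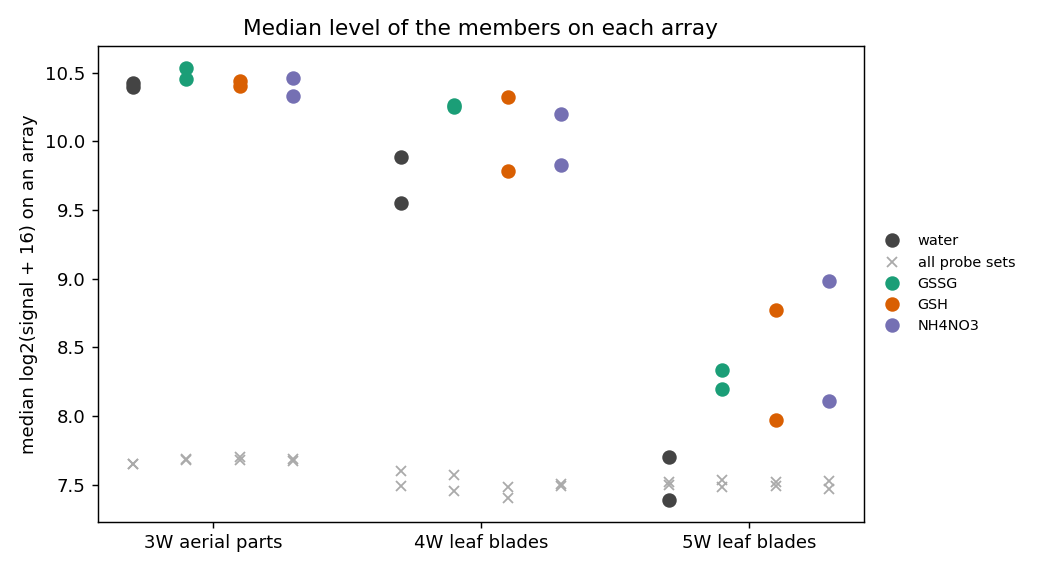
Median log2(signal + 16) of the 128 members (circles) and of all 22746 probe sets (crosses) on each of the 24 arrays, by harvest (x axis) and watering (colour). The members' medians lie between 10.33 and 10.54 at 3W, between 9.55 and 10.32 at 4W and between 7.39 and 8.98 at 5W, with both water arrays lowest at 5W.

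The members' median on an array, on the log2 scale, was 7.70 and 7.39 on the 5W water arrays, 8.34 and 8.20 with GSSG, 8.77 and 7.97 with GSH, and 8.98 and 8.11 with NH4NO3. The 2 water arrays were below the other 6 arrays of that harvest, and replicate 1 was the higher array in every watering. The difference of 5W from 4W had a median of -1.88 in water, -1.91 in GSSG, -1.50 in GSH and -1.37 in NH4NO3, against -0.01, -0.03, 0.07 and -0.01 over all probe sets. NH4NO3 was the watering with the smallest difference in 61 members and GSH in 48, while water had the largest in 59 and GSSG in 57.

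The array libraries were alike in overall scale, with medians over all probe sets of 154 to 192. For the GAPDH control, signal at the 3' end over that at the 5' end, a sign of how complete the labelled RNA was, gave a ratio between 3.71 and 5.27 at 4W and between 2.47 and 3.52 at 5W, so this ratio separated the harvests compared. The actin control (3.08 to 4.81 and 2.65 to 3.11) and a second GAPDH control (1.07 to 1.44 and 1.02 to 1.20) overlapped. Harvest and any difference in handling between the harvests cannot be told apart, and the part of RNA quality in the members' lower signal was not tested. Each title carries a further number whose meaning the labels do not give, and number 4 stands on 1 array of every group. Between arrays of that number the members' median difference was -1.36. These are the replicate 2 arrays of 4W and the replicate 1 arrays of 5W, the latter being the higher ones in every watering. Within replicate 1 the median difference was -1.632, and within replicate 2 it was -1.705. In bulk tissue, fewer cells of a type and less RNA per cell cannot be told apart.

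The labelled tissue could be checked with few markers, since most of the usual ones were unnamed here. RCA, the activase of RuBisCO and a mark of mesophyll, was bright in every array, with medians of 14710 at 3W, 35930 at 4W and 30610 at 5W. SWEET11, a sucrose exporter of the phloem, ran from 59.3 to 155 at 3W, from 9028 to 17040 at 4W and from 10960 to 13770 at 5W. CLV3, a gene of the shoot stem cells, was near background even at 3W, at 4.45 to 38.6. FMA, a guard cell gene, ran from 153 to 292 at 4W and from 186 to 273 at 5W. None of these 4 passed the test between 5W and 4W (limma, adjusted p = 0.069 for RCA, 0.37 for SWEET11, 0.81 for CLV3 and 0.65 for FMA). No marker of xylem, epidermis or flower was among the named probe sets, so these were not checked.

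Genes of the chloroplast made up 10 of the named members, with a median difference of -1.51. This grouping by role, and the ones below, were made after the values were seen. AT5G02160, a thylakoid protein that interacts with the FtsH protease, had a lowest, median and highest signal of 2561, 3449 and 3680 at 3W, 7722, 11050 and 14410 at 4W, and 1496, 4392 and 6501 at 5W. It was thus highest in the 4W blades, above every array of the other harvests. AT5G08050 and AT1G74730, known as RIQ1 and RIQ2, affect grana stacking and the dissipation of excess light. Their median signals went from 2550 and 3683 at 3W to 4844 and 6009 at 4W and to 1739 and 2241 at 5W.

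The thylakoid lumen protein AT4G02530 had a median signal of 3191 at 3W, 5383 at 4W and 2191 at 5W. AT2G42220, a rhodanese-like protein, ran from 4394 to 7516 at 3W, from 4996 to 8783 at 4W and from 716 to 3297 at 5W, so 3W and 4W overlapped and 5W stood below both. Pigment metabolism was represented by HEME1, a uroporphyrinogen decarboxylase on the way to chlorophyll and heme, and AT5G38520, the chlorophyll dephytylase CLD1. HEME1 had medians of 2087, 1405 and 513 at 3W, 4W and 5W, and AT5G38520 of 816, 2503 and 918.

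The largest difference among the chloroplast genes was that of AT2G34620, of the mTERF family of organelle transcription factors, at -2.46. Its signal ran from 637 to 1684 at 4W and from 93.7 to 228 at 5W. AT2G42220 (-1.94) and AT3G15520, a cyclophilin-type isomerase of the thylakoid (-1.93), came next. AT3G25660, a subunit of the amidotransferase that supplies glutamine-charged tRNA in organelles, had the smallest difference of all named members, at -1.14.

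Cell wall genes made up 9 named members, with a median difference of -2.07. The pectin methylesterase AT3G10720 had a lowest, median and highest signal of 463, 773 and 1315 at 4W and of 35.1, 79.5 and 354 at 5W, a mean difference of -2.78. The pectate lyase-like AT4G24780 had medians of 2346 at 3W, 1510 at 4W and 345 at 5W. The other pectate lyase-like member, AT1G04680, had medians of 2345, 593 and 165, so it was already low in 4W blades. For AT1G04680 every 3W array lay above every 4W array, while for AT4G24780 the 2 harvests overlapped.

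AT4G16980, of the arabinogalactan protein family, was the brightest wall gene, with a median of 5221 at 4W and 1065 at 5W. AT5G13140, related to the pollen allergen Ole e 1 and to extensins, had medians of 1739, 465 and 83.8 at 3W, 4W and 5W. AT5G35740, with an X8 domain that binds carbohydrates, was dim in blades, at 110 in the median of 4W and 7.35 in that of 5W, against 401 at 3W. The glycine-rich AT1G04800 (-2.31), the germin-like AT3G10080 (-1.76) and the class III peroxidase AT5G51890 (-1.45) complete the group.

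Lipid genes made up 6 named members. Of these, 4 carry the GDSL domain of esterases and lipases, which in leaves include cuticle enzymes. AT3G16370 was the brightest named member at 4W, from 8750 to 16920, and ran from 1028 to 7659 at 5W. AT1G29670 ran from 6017 to 11400 at 4W and from 448 to 5736 at 5W, where the lowest array was a water array. AT5G45950 had a median of 2655 at 3W, 732 at 4W and 172 at 5W, and AT1G75900 of 865, 1097 and 407. The other lipid genes were AT3G18280, of the lipid transfer protein type (-1.75), and GPDHC1, a glycerol-3-phosphate dehydrogenase (-1.54).

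The 4 members tied to division and DNA were ICU2, the catalytic subunit of DNA polymerase alpha, the kinesin KICP-02, the DNA glycosylase-like AT1G80850 and iqd21, of a calmodulin-binding family found on microtubules. ICU2 had a median of 358 at 3W, 90.2 at 4W and 26.0 at 5W. KICP-02 was about as bright at 4W as at 3W, with medians of 310 and 354, and lower at 5W, with a median of 115. AT4G15830, an armadillo-repeat protein, stood highest at 3W relative to 4W of the named members, with medians of 1932, 108 and 32.3.

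Receptors and signalling proteins were 5, most of them with leucine-rich repeats. AT5G12940, a protein with leucine-rich repeats, had the largest difference of the named members, -3.44, with 285 to 822 at 4W and 3.73 to 121 at 5W. DRT100, also with leucine-rich repeats, had medians of 2366 at 3W, 1752 at 4W and 270 at 5W. The receptor kinase AT5G51560 had medians of 1559, 325 and 81.9, and the protein kinase AT1G54820 of 369, 876 and 221. AT1G22690, of the gibberellin-regulated GASA family, was the named member with the lowest 3W level relative to 4W, at 59.1 to 253 at 3W, 1748 to 2397 at 4W and 280 to 857 at 5W.

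Proteins with a heavy-metal-associated domain gave 3 probe sets. The 2 probe sets of AT5G50740 went together, with medians of 2826, 873 and 173 on the brighter one and 1364, 406 and 109 on the other at 3W, 4W and 5W. AT5G60800 was highest at 4W, with medians of 227, 531 and 73.8. Redox members were MSRB6, a methionine sulfoxide reductase, and GSTU18, a glutathione transferase. MSRB6 had medians of 398 at 3W, 1716 at 4W and 389 at 5W, and GSTU18 of 441, 1252 and 455.

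**Figure D2:**
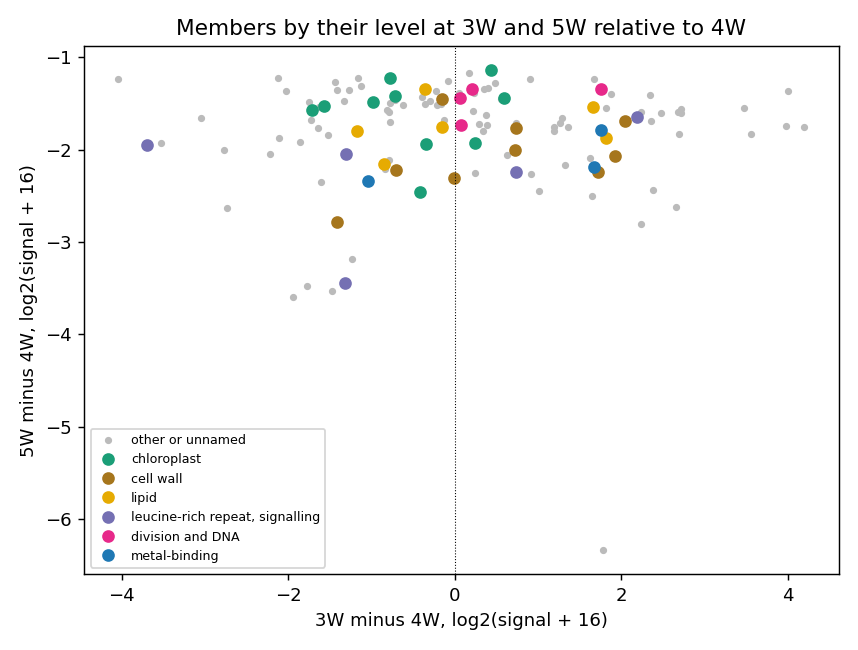
Each point is 1 of the 128 members, placed by its mean level at 3W minus 4W (x axis) and at 5W minus 4W (y axis), both on log2(signal + 16) over the 4 waterings, and coloured by role. All points lie below -1 on the y axis by the choice of members, and on the x axis they spread to both sides of 0, with 43 members separated above 4W and 38 below it. The point at -6.33 is the unnamed 246004_at.

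The members did not share 1 course before 4W. Every 3W array lay above every 4W array in 43 members (33.6%, against 18.3% of all probe sets), with a median difference of 1.81. Every 3W array lay below every 4W array in 38 members (29.7%, against 14.8%), with a median of -1.59, and in 47 the harvests overlapped. The 4W arrays were used to choose the members, and 3W samples are whole shoots with the apex, so these shares are descriptions. The first set includes 4 of the 9 wall genes and 1 of the 10 chloroplast genes, and the second includes 1 and 3 of them. In 84 members every 3W array lay above every 5W array (65.6%, against 20.1% of all probe sets), and in 3 every 3W array lay below (2.34%, against 16.8%); the 5W arrays chose the members as low, so nothing is read from these shares.

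The largest difference of any member was that of an unnamed probe set, 246004_at. Its median signal was 14380 at 3W, 4906 at 4W and 44.1 at 5W. On the 5W arrays it was 5.96 and 8.28 in water, 65.3 and 36.2 in GSSG, 67.7 and 52.0 in GSH, and 77.4 and 22.2 in NH4NO3. Both water arrays were below the other 6. All of these 5W signals were under 100, as were 42.12% to 43.73% of all probe sets on a 5W array. The probe set was called in none of the feeding comparisons given below.

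Other genes of these pathways were read from lists written with earlier results of these data known. Over all probe sets the median difference of 5W from 4W was -0.01 and 13.6% were called lower. Of 4 measured pectin genes, 2 are the members AT1G04680 and AT4G24780, which were chosen for this difference. The other 2, the pectate lyase-like AT3G07010 (-1.76) and AT5G63180 (-1.21), were both called lower. All 6 tubulins named here were called lower, with a median of -0.68, among them TUB1 (-1.21) and TUB7 (-1.03).

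Of 10 expansins, which loosen the wall, 3 were called lower and 1 higher. EXPA8 (-2.28) and EXLA1 (-2.29) had differences as large as those of the members, and EXPA4 was higher at 5W by 0.64. Of 7 xyloglucan endotransglucosylases 3 were called lower, with XTH32 at -1.24. Chlorophyll synthesis was measured through PORB (-1.31) and CHLM (-1.11), both called lower, with signals of 2916 to 10910 and 2855 to 5339 at 5W.

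Of the 3 light-harvesting and RuBisCO genes 2 were called lower, LHCB4.1 (-0.61) and LHCB4.2 (-0.77), by less than the member threshold. COB, which guides cellulose deposition, was called lower (-0.36). Of 2 glucosinolate genes UGT74B1 was called lower (-0.28). None of 3 stomatal development genes, 1 auxin gene and 3 leaf senescence genes was called, and the senescence genes SAG101, WRKY53 and WRKY6 had differences of 0.00, 0.20 and 0.14. The stomatal genes measured here were SPCH, MUTE and FMA. STOMAGEN, a peptide of stomatal development, is not in this count. It was among the probe sets that met the rule and were left out by name. The lists for cuticle and wax, aquaporins, fasciclin-like proteins, core cell division genes and gibberellin and brassinosteroid growth had no gene named in the annotation used here, and such genes may be among the unnamed probe sets.

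The second question was whether feeding changed the members, compared with water at each harvest. The choice of members used the 5W and 4W arrays but no difference between waterings, and no 3W array. The comparisons at 4W and 5W thus reuse arrays that chose the members, and how far the choice shaped them was not tested. Only the 3W comparisons use no such array. The 3 feeding comparisons of a harvest share the same 2 water arrays, so their values are given side by side and their likeness is no separate result. At 5W more of the members were called higher in fed plants than of all probe sets, though most passed no test. GSSG gave 11 members called higher (8.59%, against 0.211% of all probe sets), GSH 22 (17.2%, against 1.02%) and NH4NO3 28 (21.9%, against 1.58%), at a limma adjusted p under 0.05 over all 22746 probe sets. No member was called lower, against 0.00879%, 0.47% and 0.637% of all probe sets, and no member had an unadjusted p under 0.05 on the lower side. Higher values were not confined to members. PORB and CHLM, which are no members, had median changes of 0.634, 0.885 and 0.886 with GSSG, GSH and NH4NO3. Of these 2 genes, 1 was called higher with GSH and 1 with NH4NO3. For the 6 tubulins the medians were 0.169, 0.172 and 0.395, and for the 10 expansins -0.146, 0.158 and 0.346. Members were not compared with other probe sets of like brightness or like fall.

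The members' median log2 change at 5W was 0.48 with GSSG, 0.68 with GSH and 0.78 with NH4NO3, against -0.03, -0.02 and -0.05 over all probe sets. The change was above 0 in 112, 115 and 123 of the 128 members. The share of all probe sets above 0 was not counted, and their median was below 0 with each solution. Both fed arrays lay above both water arrays in 82, 86 and 85 members (64.1%, 67.2% and 66.4%, against 17.1%, 20.2% and 17.4% of all probe sets), and both lay below in 4, 0 and 0 (3.12%, 0.0% and 0.0%, against 21.9%, 22.8% and 24.4%). Of the 128, 11 were called with each of the 3 solutions (8.59%, against 0.202% of all probe sets), 4 with 2 of them (3.12%, against 0.739%), 20 with 1 (15.6%, against 1.84%) and 93 with none (72.7%, against 97.2%). These counts share the same water arrays. The counts depended on single arrays of 5W. Without water replicate 2 they were 2, 9 and 13. The GSSG count was 7 without its replicate 1 and 3 without its replicate 2, the GSH count 6 and 36, and the NH4NO3 count 11 and 50. A fit to only the arrays compared gave 3, 13 and 18. The GAPDH ratio of the 5W arrays was 2.72 and 3.02 in water, 3.25 and 3.52 in GSSG, 3.35 and 3.28 in GSH, and 2.83 and 2.47 in NH4NO3. Its part in the differences from water was not tested.

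**Figure D3:**
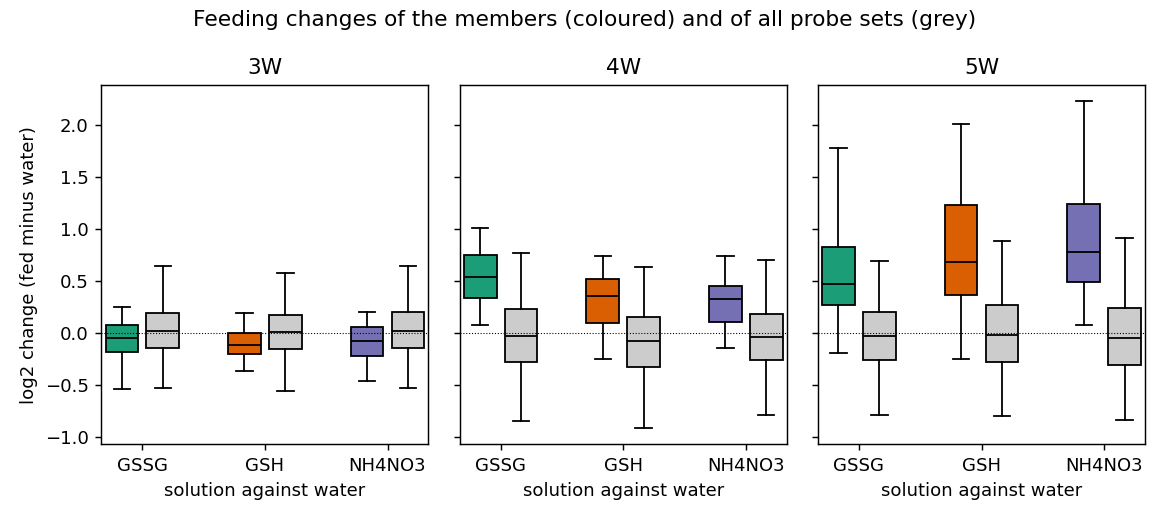
Log2 change of each fed solution against water (y axis) at 3W, 4W and 5W for the 128 members (coloured boxes) and all 22746 probe sets (grey boxes). Boxes span the 25th to 75th percentile with the median as a line, and whiskers the 5th to 95th. The members' medians are 0.48, 0.68 and 0.78 at 5W, and between -0.12 and -0.05 at 3W.

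Among the chloroplast genes, AT5G02160 had 5W signals of 1846 and 1496 in water, 3778 and 4723 in GSSG, 6501 and 4123 in GSH, and 5592 and 4660 in NH4NO3. Every fed array lay above both water arrays. The log2 change was 1.34 ± 0.22 (SE) with GSSG (limma, adjusted p = 0.0075), 1.63 ± 0.22 with GSH (adjusted p = 0.00033) and 1.61 ± 0.22 with NH4NO3 (adjusted p = 0.00026). AT5G02160 kept its call with GSH and with NH4NO3 when any 1 array was left out, and lost that with GSSG without 5W water replicate 2 or 5W GSSG replicate 2.

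AT2G42220, the rhodanese-like protein, had 5W signals of 1083 and 716 in water, 1723 and 1929 in GSSG, 2755 and 1830 in GSH, and 3297 and 2310 in NH4NO3. Every fed array was above both water arrays. It rose by 1.33 ± 0.26 with GSH (limma, adjusted p = 0.0095) and by 1.63 ± 0.26 with NH4NO3 (adjusted p = 0.001). AT5G38520 rose by 0.97 ± 0.20 with GSH (adjusted p = 0.016), from 571 and 598 in water to 1332 and 1008. HEME1 rose by 0.86 ± 0.19 with GSH (adjusted p = 0.025), from 377 and 306 to 729 and 543. In all, 1 of the 10 chloroplast genes was called with GSSG, 4 with GSH and 2 with NH4NO3. Over the 128 members 8.59%, 17.2% and 21.9% were called higher, and over all probe sets 0.211%, 1.02% and 1.58%. All 10 chloroplast genes had a change above 0 with each solution, the lowest being 0.06. Most of the 128 members also had changes above 0, so this is no trait of the chloroplast genes.

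**Figure D4:**
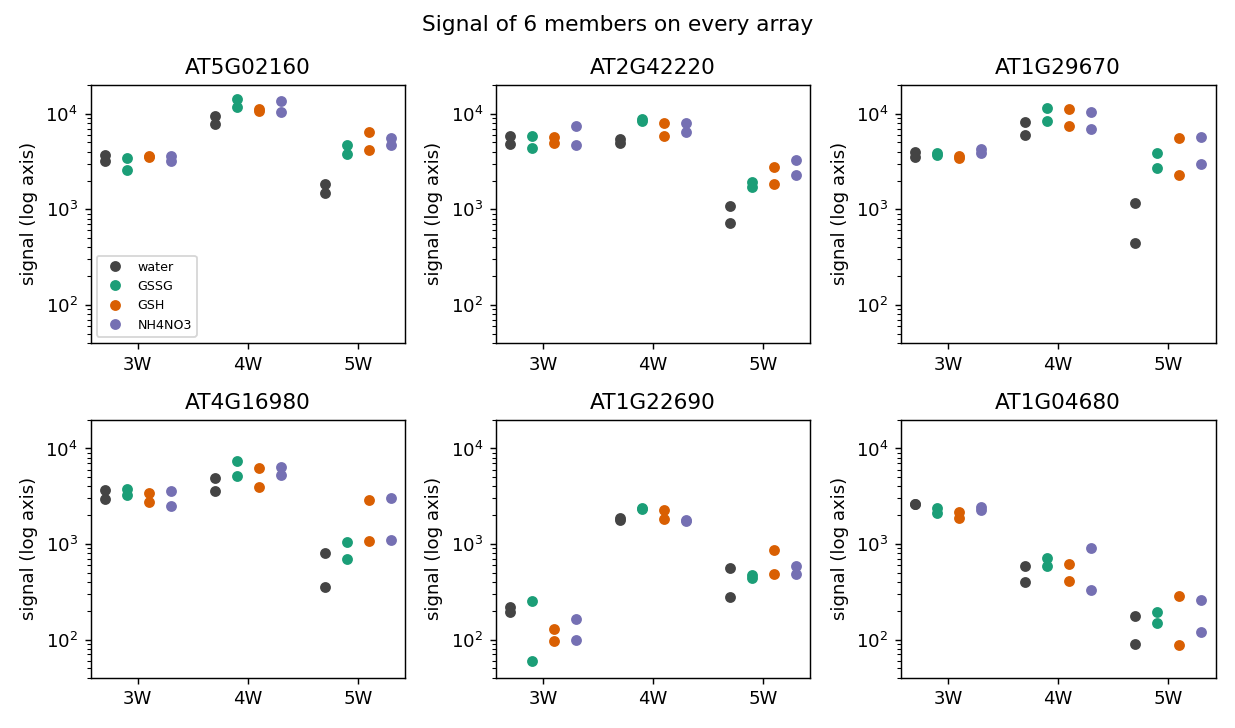
Deposited signal (log axis, 40 to 20000) of 6 members on each of the 24 arrays, by harvest (x axis) and watering (colour; 2 arrays per group). AT5G02160 and AT2G42220 are chloroplast genes, AT1G29670 a GDSL-type lipase, AT4G16980 and AT1G04680 wall genes and AT1G22690 a GASA-family gene; for AT1G29670 both 5W water arrays (1162 and 448) lie below every fed array of 5W.

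Among the lipid genes, AT1G29670 had 5W signals of 1162 and 448 in water, 3922 and 2713 in GSSG, 5634 and 2271 in GSH, and 5736 and 2999 in NH4NO3. It was higher on all 6 fed arrays than on both water arrays. The log2 change was 2.15 ± 0.41 with GSSG (limma, adjusted p = 0.028), 2.28 ± 0.41 with GSH (adjusted p = 0.0046) and 2.49 ± 0.41 with NH4NO3 (adjusted p = 0.0015). AT3G16370 rose by 1.98 ± 0.42 with GSH (adjusted p = 0.02), from 1504 and 1028 in water to 7659 and 3193. All 4 of these calls were lost when 5W water replicate 2, or replicate 1 of the fed group, was left out.

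Of the wall genes 2 were called with NH4NO3 and none with GSSG or GSH, and the difference between solutions was not tested. With NH4NO3, GSSG and GSH, 21.9%, 8.59% and 17.2% of the 128 members were called higher, against 1.58%, 0.211% and 1.02% of all probe sets. AT3G10080 rose by 0.86 ± 0.18 with NH4NO3 (limma, adjusted p = 0.014), from 112 and 125 in water to 277 and 187. AT4G16980 rose by 1.74 ± 0.45 (adjusted p = 0.045), from 802 and 357 to 3058 and 1090, and lost this call in 18 of the 24 fits with 1 array left out. The 9 wall genes had median changes of 0.45, 0.80 and 0.79 with GSSG, GSH and NH4NO3, and all 9 had changes above 0 in each, as most of the 128 members did.

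Of the other named members, MSRB6 rose by 2.06 ± 0.50 with NH4NO3 (limma, adjusted p = 0.034), from 211 and 112 in water to 1200 and 398. The protein kinase AT1G54820 rose by 1.98 ± 0.45 with GSH (adjusted p = 0.029) and by 1.91 ± 0.45 with NH4NO3 (adjusted p = 0.027), from 94.2 and 66.5 in water. AT1G21500 rose by 1.29 ± 0.30 with GSH (adjusted p = 0.033) and by 1.73 ± 0.30 with NH4NO3 (adjusted p = 0.0026), from 700 and 341 in water to 1670 and 896 and to 2149 and 1287. AT1G80850 rose by 1.76 ± 0.43 with GSH (adjusted p = 0.047), where its water arrays differed widely, at 75.3 and 7.37. That call was lost in 21 of the 24 fits with 1 array left out. No probe set of the metal-binding group was called in any of the 3. Its median changes were 1.25 with GSSG, 1.27 with GSH and 1.47 with NH4NO3, and its lowest were 0.24, 0.68 and 1.15.

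Apart from AT5G02160 with GSH and NH4NO3 and AT2G42220 with NH4NO3, each named call above was lost without at least 1 array. In all of those calls the arrays that decided them included 5W water replicate 2 or replicate 1 of the fed group. Replicate 1 was the higher of the fed arrays for most of these genes, as in AT3G16370 and AT4G16980.

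The changes with the smallest p belonged to unnamed probe sets. For 260221_at the 5W signal was 27.0 and 73.7 in water, 373 and 504 in GSSG, 2468 and 1087 in GSH, and 3208 and 968 in NH4NO3. The log2 change was 2.86 ± 0.43 with GSSG (limma, adjusted p = 0.0049), 4.74 ± 0.43 with GSH (adjusted p = 4.7e-06) and 4.84 ± 0.43 with NH4NO3 (adjusted p = 3.2e-06). At 4W the same probe set was between 3671 and 9617 on every array, with both GSH arrays, 3697 and 3671, below both water arrays, 9617 and 5846. Its call with GSSG was lost without 5W water replicate 1 or 5W GSSG replicate 2.

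For 259161_at the 5W signal was 775 and 512 in water, against 3349 and 5958 in GSSG, 11150 and 5916 in GSH, and 9500 and 4601 in NH4NO3. Every fed array was above both water arrays, and the log2 changes were 2.79 ± 0.36, 3.65 ± 0.36 and 3.36 ± 0.36. The call with GSSG was lost without 5W water replicate 2. For 256825_at the 5W signal was 190 and 221 in water, against 565 and 1388 in GSSG, 1570 and 1578 in GSH, and 1029 and 1102 in NH4NO3. Its log2 changes were 2.03 ± 0.27, 2.85 ± 0.27 and 2.29 ± 0.27, and all 3 calls held when any 1 array was left out.

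In 4W blades no member was called with any solution, where 0.0484%, 0.0044% and 0.0132% of all probe sets were called with GSSG, GSH and NH4NO3 in either direction. At an unadjusted limma p under 0.05 there were 47, 20 and 17 members higher, and 0, 1 and 0 lower, against 1001, 636 and 618 of all probe sets higher and 1236, 1221 and 880 lower. The members' median change was 0.54, 0.36 and 0.33, against -0.03, -0.07 and -0.04 over all probe sets. Over the alternatives it ran from 0.39 to 0.73, from 0.12 to 0.60 and from 0.15 to 0.47. Both GSSG arrays lay above both water arrays in 93 members (72.7%, against 16.5% of all probe sets). With GSH this held in 46 (35.9%, against 12%) and with NH4NO3 in 49 (38.3%, against 13.2%). Both fed arrays lay below both water arrays in 0, 5 and 1 members (0.0%, 3.91% and 0.781%, against 18.8%, 21.1% and 17.4%). AT5G02160, for example, was at 9557 and 7722 in water and at 14410 and 11620 in GSSG.

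Over the mean of 4W and 5W, 10 members were called higher with GSSG (7.81%, against 0.18% of all probe sets), 18 with GSH (14.1%, against 0.554%) and 23 with NH4NO3 (18%, against 1.04%), and none lower (against 0.0484%, 0.418% and 0.51%). AT5G02160 and AT2G42220 were called with each of the 3. AT3G15520, the isomerase, rose by 0.92 ± 0.22 with GSH (limma, adjusted p = 0.046). AT2G32500, a protein with a stress-responsive alpha-beta barrel domain, rose by 0.72 ± 0.15 with NH4NO3 (adjusted p = 0.021). Neither was called at a single harvest. With 1 array left out, the call of AT3G15520 was lost in 13 of 24 fits and that of AT2G32500 in 5. The call of AT2G42220 was lost in 15 with GSSG and 4 with GSH, that of AT5G02160 in 3 with GSSG, and their other calls in none. With only the arrays compared, AT2G42220 lost its calls with GSSG and GSH, AT5G02160 its call with GSSG, and AT3G15520 and AT2G32500 theirs. The GSSG call of AT2G42220 was also lost with quantile normalization, centring on the array median and a pseudocount of 64. That pseudocount also lost the call of AT3G15520. Without 4W water replicate 2 the counts were 2, 8 and 12, and without 5W water replicate 2 they were 3, 10 and 15. Leaving out replicate 1 or replicate 2 of the 5W fed group gave 5 and 2 with GSSG. With replicate 1 of the 5W fed group left out the count was 8 with GSH and 9 with NH4NO3, and without 5W NH4NO3 replicate 2 it was 37. Leaving out 4W arrays of the fed group gave 6 and 3 with GSSG (replicate 1 and replicate 2) and 10 with GSH (replicate 1), and leaving out either 3W GSSG array gave 6.

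In 3W shoots, whose arrays had no part in choosing the members, no member and no other probe set was called with any solution (0.0%). At an unadjusted limma p under 0.05 there were 0, 0 and 1 members, against 599, 506 and 611 probe sets. The members' median change was -0.05 with GSSG, -0.12 with GSH and -0.08 with NH4NO3, against 0.02, 0.01 and 0.02 over all probe sets. Both fed arrays lay below both water arrays in 26, 29 and 29 members (20.3%, 22.7% and 22.7%, against 13.2%, 14.3% and 13.1%). Both lay above in 12, 7 and 7 (9.38%, 5.47% and 5.47%, against 18.1%, 16.2% and 18.2%). The GSSG median ran from -0.11 to 0.02 over the alternatives, so it had no settled sign.

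The difference between the feeding effect in blades, as the mean of 4W and 5W, and that at 3W was tested directly. With GSH it was called for 1 member, 256825_at (0.0264% of all probe sets were called), which lost this call in 20 of the 24 fits with 1 array left out, and with GSSG and NH4NO3 for none (0.0% and 0.022%). At an unadjusted p under 0.05 there were 39, 43 and 44 members with a larger effect in blades and none with a smaller one, against 490, 531 and 577 of all probe sets with a larger and 709, 738 and 859 with a smaller one. The median difference was 0.60, 0.63 and 0.66, against -0.05, -0.05 and -0.06 over all probe sets.

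The members' medians at 5W were above 0 in fed plants for each course before 4W. In the 43 that were higher at 3W than at 4W, the median change was 0.38 with GSSG, 0.60 with GSH and 0.72 with NH4NO3, and 2, 4 and 7 of them were called. In the 38 that were lower at 3W, it was 0.59, 0.94 and 0.93, and 6, 12 and 12 were called. In the 47 that overlapped, it was 0.50, 0.68 and 0.72, and 3, 6 and 9 were called. Over all 128 members 8.59%, 17.2% and 21.9% were called higher, and over all probe sets 0.211%, 1.02% and 1.58%. The difference between these sets was not tested.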

How the data were processed

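The deposited values are intensity, 1 signal per probe set and array on a linear scale, made by the authors with Affymetrix Expression Console per the submitters' processing notes. Which version and summary method were used is not given in the sources used here. Deposited intensity values had trimmed means of 500.04 to 500.06 (2% at each end), so arrays were taken as scaled and not normalized again. RNA was labelled from the 3' end, per the labels' protocols. From these values log2(signal + 16) was computed, so fold changes understate the change of dim probe sets, and 64 control probe sets were left out. Limma models with 1 mean for each group took all 24 arrays together, with limma 3.58.1 in R 4.3.3 (moderated variances with an intensity trend) and adjusted by Benjamini-Hochberg over 22746 probe sets. The fitting was tested on simulated data for GSH against water at 5W, with changes put into probe sets brighter than the median. Of log2 changes of 1, 2 and 3, 52%, 96% and 100% were called, with 14 false calls among 22746 probe sets. A member that was not called may therefore still have changed. Precision is limited by having 2 arrays in a group. Python 3.11.15, pandas 2.3.3, numpy 2.4.6 and matplotlib 3.10.9 made tables and plots.

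Gene names come from the platform annotation, updated by identifier to the RefSeq table of TAIR10.1; of all probe sets 13513 had 1 gene, 503 several and 8730 none here. Roles are background knowledge. Members, gene lists and tests were chosen with earlier results of these data known, and the role groups after the values were seen. Named members are those with 1 gene that had the 20 largest mean differences, were the 10 brightest at 4W, stood in a list, had the 12 smallest p among those called, belonged to a family with several members, were the 5 highest or 5 lowest at 3W relative to 4W, or were the 3 nearest the threshold on either side; up to 2 called genes per list are named besides. Among the members that meet these conditions, AT5G01015, AT2G05160 and AT5G27290 are not described above. Some further members of the role groups, some list and marker genes and 4 unnamed probe sets were named after their values were seen. Alternatives were pseudocounts of 1 and 64, quantile normalization, centring on the array median and a filter at the 40th percentile. Further ones were only the arrays compared, a replicate block, also within each harvest, and leaving out each array.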

Additional observations from a re-analysis of the deposited data

Results flagged for a closer look

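For the unnamed probe set 256825_at the effect of GSH differed between harvests. It was 1.98 larger on the log2 scale in blades (the mean of 4W and 5W) than at 3W (limma, SE 0.33, adjusted p = 0.046), with changes of -0.18 at 3W, 0.74 at 4W and 2.85 at 5W. Over the alternatives the difference ran from 1.82 to 2.08, and its call was lost in 20 of the 24 fits with 1 array left out, and under quantile normalization and a pseudocount of 64. The highest adjusted p was 0.37.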

How the results depend on the processing

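The members' median change at 5W stayed above 0 under every alternative run, at 0.38 to 0.63 with GSSG, 0.45 to 1.02 with GSH and 0.47 to 1.098 with NH4NO3, and no member was called lower in any feeding comparison. The rule itself gave 128 probe sets, 95 to 145 under other settings and 82 to 182 with 1 array left out; without 5W NH4NO3 replicate 2 it gave 82, of which 77 were among the 128. With 1 array left out, the members called at 5W were 2 to 12 with GSSG, 6 to 36 with GSH and 11 to 50 with NH4NO3, over the mean of 4W and 5W 2 to 14, 8 to 26 and 9 to 37, and for blades minus 3W 0 to 1, 0 to 1 and 0 to 2. Calls fell at 5W to 3, 13 and 18, and over the mean to 2, 11 and 13, with only the arrays compared, a fit on fewer samples. GSSG gave 7 at 5W with a pseudocount of 64, and over the mean 6 with that pseudocount and 6 with quantile normalization. For blades minus 3W, GSH gave 0 with quantile normalization, 0 with a pseudocount of 64, 2 with centring and 2 with a pseudocount of 1, and NH4NO3 gave 1 with the latter; the cause was not tested. Of 3615 values for 113 single calls, 482 lost the call and 0 reversed.

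The replicate number as a block gave, over the mean, 19 members with GSSG and 29 with GSH, and 2 for GSH in blades minus 3W; it moved no other count by over 1.5 times. A replicate block within each harvest, chosen after seeing the data, gave more calls, for GSSG, GSH and NH4NO3 in turn. At 4W it gave 5, 1 and 0 (against 0.334%, 0.119% and 0.022% of all probe sets called higher). At 5W it gave 23, 49 and 58 (against 0.703%, 2.41% and 3.06%), and over the mean 44, 52 and 61 (against 1.19%, 2.01% and 2.44%). For blades minus 3W it gave 1, 8 and 9, for which the share of all probe sets is not given here, so nothing is read from these. Deviations of same-numbered arrays correlated between groups at 0.24 to 0.39 within 4W, 0.12 to 0.40 within 5W and 0.05 to 0.25 within 3W (6 pairs of groups each), and at -0.17 to 0.23 over 48 pairs from different harvests. The labels do not say that a number marks a shared batch and there are 2 numbers only, so the correlations within 4W and 5W are a hint from the data, and the fit without a block was kept.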
